A study of Homo sapiens with 16 samples.

Results

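The 10 genes described here encode amino acid transporters of the plasma membrane: SLC3A2, SLC7A5, SLC7A11, SLC43A1, SLC1A4, SLC1A5, SLC38A1, SLC38A2, SLC7A1 and SLC6A9. They were named with earlier results of these data known. Each gene took the probe set that carried its symbol alone, and all 10 of 10 had such a probe set among the 22395 genes measured and were among the 15676 genes tested. The arrays measured total RNA from the human colorectal carcinoma lines DLD1 and HCT116, both long established in culture. Each line came as 2 derivatives that differ in PIK3CA, the gene for the catalytic p110-alpha subunit of phosphoinositide 3-kinase: PIK3CA Mut cells keep the mutant allele after knockout of the wild-type one, and PIK3CA WT cells keep the wild-type allele after knockout of the mutant one. The 8 groups were DLD1 Mut, DLD1 WT, HCT116 Mut and HCT116 WT cells, each without glutamine (-Gln) and with glutamine (+Gln) for 24 h, with 2 arrays a group that the labels call biological replicates. All 16 cultures had DMEM with 10% dialyzed fetal bovine serum, -Gln and +Gln alike. Each genotype of a line is represented by 1 derivative, so that genotype and derivative cannot be told apart, and no probe set carried the symbol PIK3CA alone, so that the deleted allele was not analysed here.

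Cells take up amino acids through families of solute carriers that differ in what they carry and in how the transport is driven. SLC3A2 is the CD98 heavy chain, which brings the light chains SLC7A5 (LAT1, an exchanger of large neutral amino acids) and SLC7A11 (xCT, which imports cystine in exchange for glutamate) to the cell surface. SLC1A5 (ASCT2) and SLC1A4 (ASCT1) are sodium-dependent exchangers of small neutral amino acids, and SLC1A5 is a main route of glutamine into tumour cells. SLC38A1 and SLC38A2 are sodium-coupled importers of glutamine and other neutral amino acids, SLC7A1 (CAT1) carries arginine and lysine, SLC6A9 (GLYT1) imports glycine, and SLC43A1 (LAT3) carries large neutral amino acids without a heavy chain. Shortage of an amino acid activates the kinase GCN2 and, through it, translation of the transcription factor ATF4. ATF4 binds amino acid response elements, composite sites shared with C/EBP factors, near the genes of many transporters and synthetic enzymes.

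The promoter windows of these genes were set beside the expression values because most of the 10 genes moved with glutamine supply. RefSeq windows of 250 bases before to 50 bases after a transcription start (assembly GRCh38.p14) were found for 9 of the 10 genes, 16 windows in all, and SLC7A11 was not among them. The core of the amino acid response element, TGATGNAA on either strand, was present in 1 window each of 5 genes, SLC1A4, SLC1A5, SLC3A2, SLC7A1 and SLC38A1. The same letters occurred in 3.62% of all 35116 windows and in 4.46% of the 27305 genes with a window, and a gene with several windows has more chances to hold them. The 5 windows are shown because they hold this core, 5′ to 3′ on the strand of the gene, with the matches to the searched motifs in capitals. The windows are SLC1A4 at chr2:64989149-64989448 (plus strand), SLC1A5 at chr19:46784765-46785064 (minus), SLC3A2 at chr11:62881449-62881748 (plus), SLC7A1 at chr13:29595639-29595938 (minus) and SLC38A1 at chr12:46266467-46266766 (minus).
SLC1A4: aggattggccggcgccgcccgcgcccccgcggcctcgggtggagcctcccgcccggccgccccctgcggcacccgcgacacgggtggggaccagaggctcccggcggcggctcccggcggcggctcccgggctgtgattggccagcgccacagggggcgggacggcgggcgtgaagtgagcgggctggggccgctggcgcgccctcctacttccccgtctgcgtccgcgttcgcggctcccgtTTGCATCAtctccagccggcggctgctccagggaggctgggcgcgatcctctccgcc
SLC1A5: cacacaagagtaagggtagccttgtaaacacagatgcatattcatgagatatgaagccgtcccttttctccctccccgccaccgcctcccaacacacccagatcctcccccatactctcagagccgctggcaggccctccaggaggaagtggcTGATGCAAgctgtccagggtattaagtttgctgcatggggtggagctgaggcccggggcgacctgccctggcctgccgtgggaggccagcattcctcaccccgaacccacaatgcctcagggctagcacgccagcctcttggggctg
SLC3A2: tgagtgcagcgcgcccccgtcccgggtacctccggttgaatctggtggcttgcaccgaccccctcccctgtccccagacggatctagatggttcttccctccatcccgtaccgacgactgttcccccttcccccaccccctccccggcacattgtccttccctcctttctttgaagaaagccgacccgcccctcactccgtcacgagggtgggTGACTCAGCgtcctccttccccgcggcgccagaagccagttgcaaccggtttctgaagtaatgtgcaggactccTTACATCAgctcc
SLC7A1: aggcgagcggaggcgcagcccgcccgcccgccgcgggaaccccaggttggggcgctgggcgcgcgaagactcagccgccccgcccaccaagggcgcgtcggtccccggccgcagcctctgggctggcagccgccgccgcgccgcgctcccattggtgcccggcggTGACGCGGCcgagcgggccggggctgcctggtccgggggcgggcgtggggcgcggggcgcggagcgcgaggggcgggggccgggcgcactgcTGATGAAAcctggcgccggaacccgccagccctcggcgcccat
SLC38A1: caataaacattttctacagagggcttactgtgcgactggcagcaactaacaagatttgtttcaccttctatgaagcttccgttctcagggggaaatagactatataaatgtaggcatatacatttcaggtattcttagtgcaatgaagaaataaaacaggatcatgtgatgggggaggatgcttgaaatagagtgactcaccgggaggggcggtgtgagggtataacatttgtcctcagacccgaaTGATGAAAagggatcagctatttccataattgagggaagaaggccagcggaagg
In SLC1A4 the core reads TTGCATCA, on the other strand, at bases -7 to 0 from the annotated start. In SLC1A5 it reads TGATGCAA at -97 to -90 of the window shown, 1 of 3 windows of that gene. SLC3A2 holds TTACATCA on the other strand at 37 to 44, and upstream of it TGACTCAGC, a match to the NRF2 element TGACNNNGC, at -37 to -29. SLC7A1 holds TGATGAAA at 7 to 14 and the NRF2 match TGACGCGGC at -85 to -77, and SLC38A1 holds TGATGAAA at -4 to 3. The NRF2 letters were found in windows of 4 genes (SLC1A5, SLC3A2, SLC7A1 and SLC7A5), against 13.3% of all windows and 16.1% of all genes with a window. The E-box CACGTG was found in windows of 3 (SLC1A5, SLC7A5 and SLC43A1), against 7.26% of windows and 8.77% of genes. Both strands were searched for each motif, and no match of one motif overlapped a match of another. A match describes letters in a window and not a site in use.

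The arrays were alike in their distributions, with median intensities of 3.57 to 3.70 and upper quartiles of 19.9 to 22.7. The 2 arrays of each group had a Pearson r of 0.989 to 0.992 over genes (a description, since genes are not independent) and differed by a median of 0.14 to 0.17 on the log2 scale. All 7 colon epithelial markers (EPCAM, CDH1, KRT8, KRT18, KRT19, VIL1 and CDX2) were tested, with a summed intensity of 2992 to 6687 on the arrays. That sum was carried mainly by EPCAM (mean log2 intensity 10.80), CDH1 (10.11) and KRT19 (9.89), whereas KRT8 averaged 4.58 and VIL1 only 2.03. By comparison, 4 fibroblast markers summed to 11.2 to 20.6, 4 leukocyte markers to 8.09 to 23.0 and 2 endothelial markers to 4.80 to 6.50, and of these only the fibroblast marker COL1A1 was bright enough to be tested.

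Without glutamine most of these transporters were higher in DLD1 WT cells and on average over the 4 derivatives, and the log2 change of 7 of the 10 was higher in DLD1 than in HCT116 cells. A gene is counted as raised or lowered where its adjusted p (limma, Benjamini-Hochberg over all 15676 tested genes) was under 0.05. In DLD1 WT cells 9 of the 10 rose and 0 fell, where 14.0% of all tested genes rose and 13.0% fell. In DLD1 Mut cells 5 rose and 1 fell, against 16.8% of all genes in each direction. In HCT116 Mut cells 3 rose and 2 fell, against 16.4% and 16.5% of all genes, and in HCT116 WT cells 3 rose and 0 fell, against 10.3% and 10.1%. Averaged over the 4 derivatives 8 rose and 0 fell, where 24.3% of all genes rose and 23.5% fell. A rise on average need not be a rise in each derivative. The 8 include SLC1A4 (0.34), which fell in HCT116 Mut cells, and SLC7A5 (0.17), called in DLD1 WT cells alone. The median log2 change of the 10 genes was 0.60 in DLD1 WT, 0.37 in DLD1 Mut, 0.25 in HCT116 WT and 0.04 in HCT116 Mut cells, while the median of all tested genes was 0.01, -0.03, 0.01 and -0.00 in the same order. Each derivative has its own +Gln arrays, so these 4 comparisons share no array, whereas the average holds all of them. Where arrays are said below not to overlap, this describes 2 arrays against 2 and is not a test. The share of all genes without overlap was not counted. Wherever 0 genes are given for one direction, here and in the comparisons that follow, 0 of the 10 also reached an unadjusted limma p under 0.05 in that direction, except where stated.

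**Figure D1:**
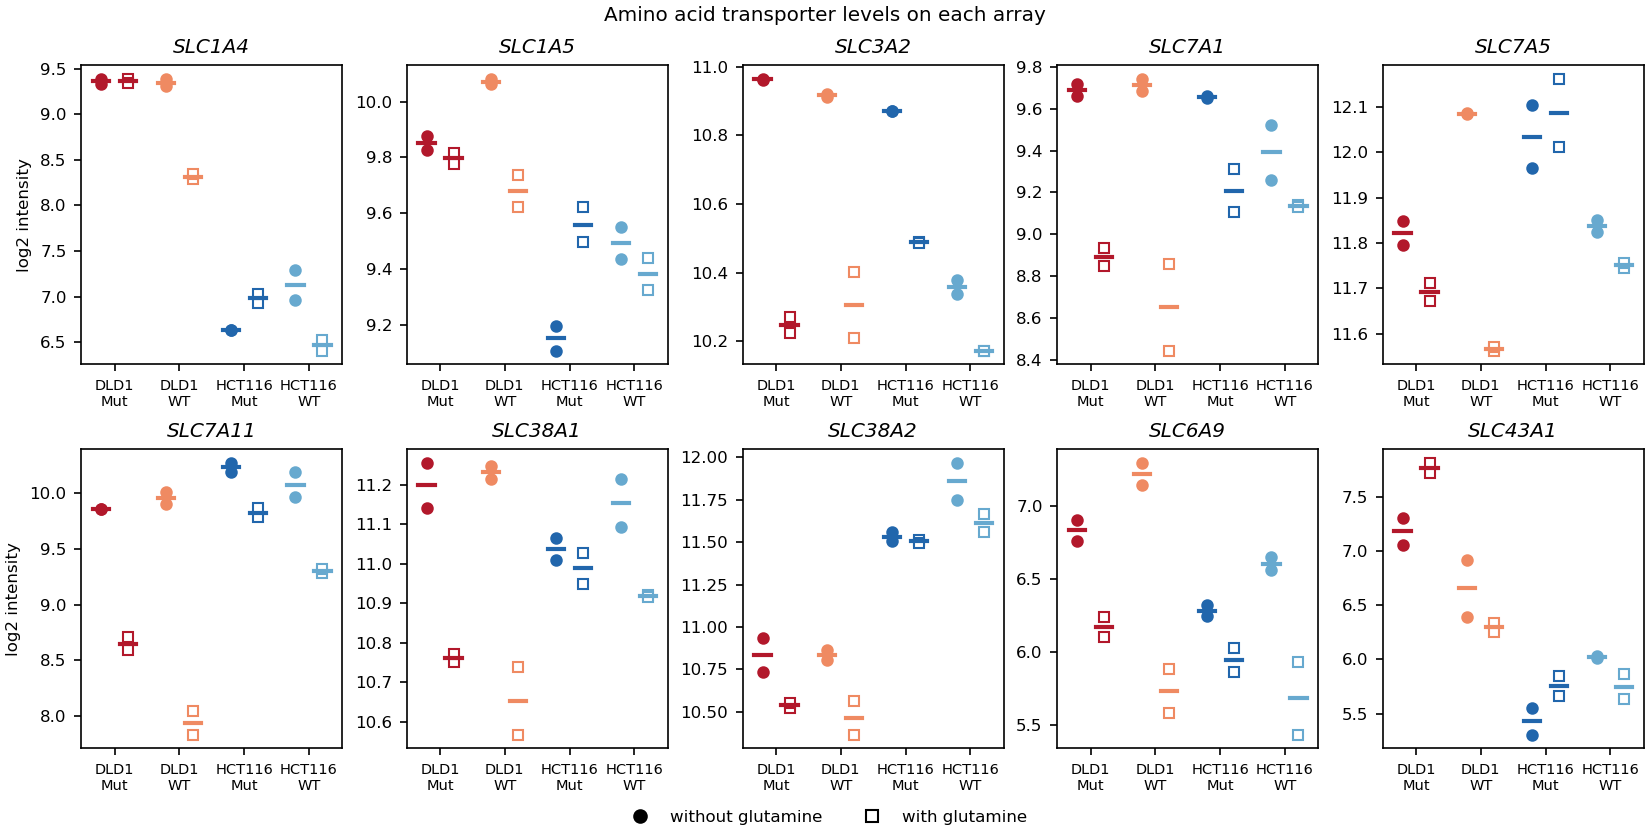
Log2 intensity of each of the 10 transporters (one panel per gene) on every array, by derivative, with -Gln arrays left of +Gln arrays; each point is 1 array and the short bar is the mean of the 2 arrays of a group. SLC7A11 was higher on both -Gln arrays than on both +Gln arrays of every derivative, while SLC1A4 lay at the same level on all 4 DLD1 Mut arrays.

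**Figure D2:**
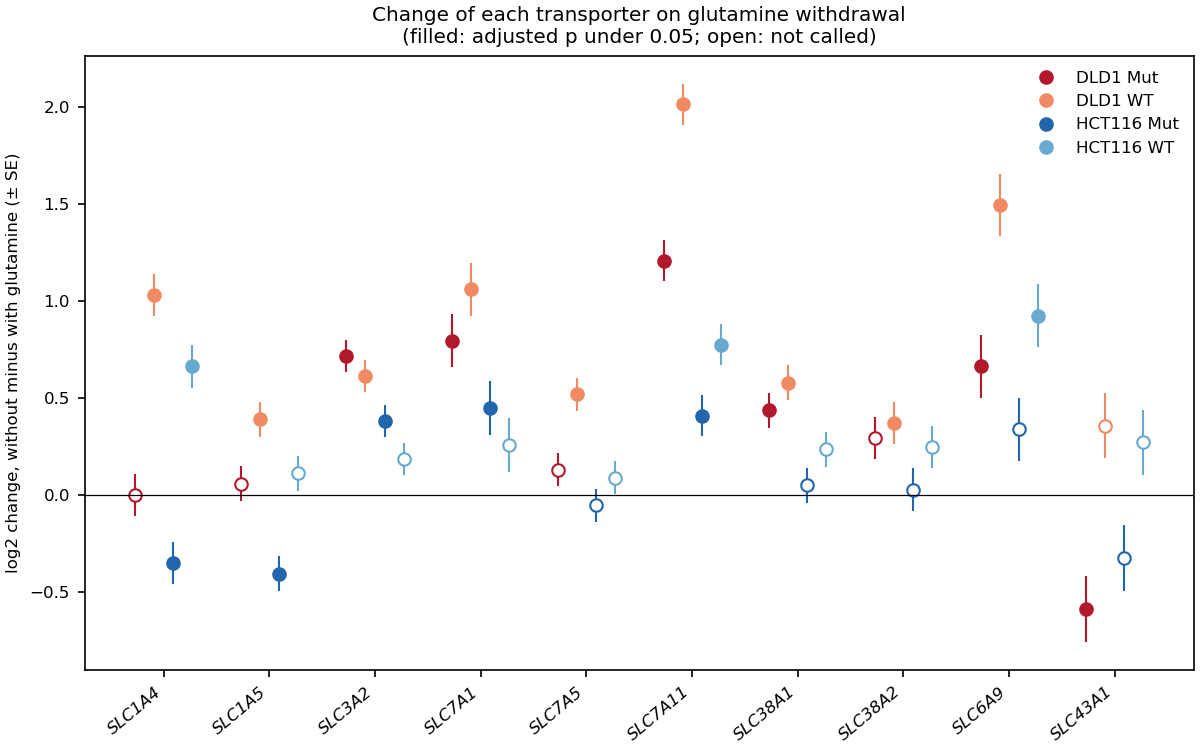
Log2 change after glutamine withdrawal (-Gln minus +Gln) of each transporter in the 4 derivatives; points are the estimates, bars limma's SE on either side, and filled points passed the limma threshold. Changes in DLD1 WT cells reached 2.02 for SLC7A11, and the 10 changes in HCT116 Mut cells lay between -0.41 and 0.45.

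SLC7A11, the cystine importer, rose in all 4 derivatives and had the largest average log2 change of the 10 (1.10 ± 0.05, adjusted p = 6.71e-08). In DLD1 Mut cells its log2 level was 9.86 and 9.86 without glutamine, against 8.59 and 8.71 with glutamine. DLD1 WT cells had 10.01 and 9.90 without glutamine, against 7.84 and 8.04 with it. HCT116 Mut cells had 10.27 and 10.19 without glutamine, against 9.79 and 9.87 with it. The -Gln and +Gln arrays did not overlap in any of these derivatives, nor in HCT116 WT cells, with 10.19 and 9.97 without glutamine, against 9.28 and 9.32 with it. The rise was 4.05-fold in DLD1 WT (log2 change 2.02 ± 0.11, limma SE, 2 arrays a group, adjusted p = 1.67e-06) and 2.31-fold in DLD1 Mut cells (1.21 ± 0.11, adjusted p = 1.51e-05). It was 1.71-fold in HCT116 WT (0.77 ± 0.11, adjusted p = 0.000569) and 1.33-fold in HCT116 Mut cells (0.41 ± 0.11, adjusted p = 0.0125). The call in HCT116 Mut cells was lost without replicate 1 of the +Gln (log2 change 0.37, adjusted p = 0.0717) or of the -Gln arrays (0.37, adjusted p = 0.0731).

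SLC3A2, the heavy chain that SLC7A11 and SLC7A5 need at the surface, rose in 3 of the 4 derivatives. Its log2 level in DLD1 Mut cells was 10.96 and 10.96 without glutamine, against 10.27 and 10.22 with it, a change of 0.72 ± 0.08 (1.64-fold, adjusted p = 9.01e-05). DLD1 WT cells had 10.92 and 10.91 without glutamine, against 10.21 and 10.40 with it (0.61 ± 0.08, 1.53-fold, adjusted p = 0.000372). HCT116 Mut cells had 10.87 on both -Gln arrays, against 10.49 on both +Gln arrays (0.38 ± 0.08, 1.30-fold, adjusted p = 0.00477). All -Gln arrays of these derivatives lay above their +Gln arrays, and the levels in HCT116 WT cells, 10.38 and 10.34 against 10.17 and 10.17, were ordered in the same way with a change that did not pass (0.19 ± 0.08, adjusted p = 0.151).

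SLC7A5, the LAT1 light chain, passed the test in DLD1 WT cells, and in no other derivative, but the difference between the responses of the DLD1 derivatives did not pass (Mut minus WT -0.39 ± 0.12, adjusted p = 0.162). In the WT derivative its log2 level was 12.09 and 12.09 without glutamine, against 11.56 and 11.57 with it (log2 change 0.52 ± 0.09, 1.43-fold, adjusted p = 0.00121). DLD1 Mut cells had 11.79 and 11.85 against 11.67 and 11.71, which do not overlap but differ by only 0.13 ± 0.09 (adjusted p = 0.288). In HCT116 Mut cells the arrays overlapped, with 12.10 and 11.96 without glutamine, against 12.01 and 12.16 with it (-0.05 ± 0.09, adjusted p = 0.695). HCT116 WT cells had 11.85 and 11.83 against 11.75 and 11.76 (0.09 ± 0.09, adjusted p = 0.546). Set side by side, the log2 changes in DLD1 WT cells were 0.61 for SLC3A2, 0.52 for SLC7A5 and 2.02 for SLC7A11, and in DLD1 Mut cells 0.72, 0.13 and 1.21.

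SLC43A1 is a carrier of similar substrates that needs no heavy chain, and it fell in DLD1 Mut cells. Its log2 level there was 7.06 and 7.31 without glutamine, against 7.73 and 7.82 with it, with no overlap (log2 change -0.59 ± 0.17, adjusted p = 0.0204). In DLD1 WT cells it was 6.92 and 6.40 without glutamine, against 6.26 and 6.34 with it, and the change of 0.36 ± 0.17 did not pass (adjusted p = 0.152). HCT116 Mut cells had 5.56 and 5.31 against 5.67 and 5.85 (-0.33 ± 0.17, adjusted p = 0.177). HCT116 WT cells had 6.01 and 6.03 against 5.63 and 5.87 (0.27 ± 0.17, adjusted p = 0.313). Both Mut derivatives thus had negative estimates and both WT derivatives positive ones. The differences Mut minus WT, -0.95 ± 0.24 in DLD1 and -0.60 ± 0.24 in HCT116, did not pass (adjusted p = 0.0976 and 0.152). The fall in DLD1 Mut cells was not called without replicate 1 (log2 change -0.64, adjusted p = 0.0585) or replicate 2 (-0.54, adjusted p = 0.101) of the +Gln arrays or replicate 1 of the -Gln arrays (-0.47, adjusted p = 0.137). A rise in DLD1 WT cells was called without replicate 2 of the -Gln arrays (0.62, adjusted p = 0.0270).

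SLC1A4, the exchanger of alanine, serine and cysteine, rose in both WT derivatives and in neither Mut derivative. In DLD1 WT cells its log2 level was 9.38 and 9.31 without glutamine, against 8.29 and 8.34 with it (log2 change 1.03 ± 0.11, 2.04-fold, adjusted p = 7.68e-05). In HCT116 WT cells it was 7.29 and 6.97 without glutamine, against 6.41 and 6.53 with it (0.66 ± 0.11, 1.58-fold, adjusted p = 0.00171). The 4 DLD1 Mut arrays, by contrast, lay together, with 9.39 and 9.34 without glutamine, against 9.38 and 9.34 with it, and the 95% interval of the log2 change ran from -0.24 to 0.24 (adjusted p = 0.997). HCT116 Mut cells had 6.63 and 6.63 without glutamine, against 6.93 and 7.03 with it, a fall of -0.35 ± 0.11 (1.28-fold lower, adjusted p = 0.0291). That fall was not called when any 1 of the 4 HCT116 Mut arrays was left out. Without replicate 1 or 2 of the +Gln arrays the log2 change was -0.40 (adjusted p = 0.0567) or -0.30 (adjusted p = 0.139). Without replicate 1 or 2 of the -Gln arrays it was -0.35 in each case (adjusted p = 0.0976 and 0.0977).

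SLC1A5, the glutamine carrier ASCT2, moved in opposite directions in DLD1 WT and HCT116 Mut cells. Its log2 level in DLD1 WT cells was 10.08 and 10.06 without glutamine, against 9.62 and 9.74 with it (log2 change 0.39 ± 0.09, 1.31-fold higher, adjusted p = 0.00868). In HCT116 Mut cells it was 9.20 and 9.11 without glutamine, against 9.50 and 9.62 with it (-0.41 ± 0.09, 1.33-fold lower, adjusted p = 0.00548). Neither pair of groups overlapped. DLD1 Mut cells had 9.83 and 9.88 against 9.82 and 9.78 (0.06 ± 0.09, adjusted p = 0.699). HCT116 WT cells had 9.55 and 9.44 against 9.33 and 9.44 (0.11 ± 0.09, adjusted p = 0.459). Its rise in DLD1 WT cells was not called without replicate 1 of the +Gln arrays (0.33, adjusted p = 0.0638) or of the -Gln arrays (0.38, adjusted p = 0.0512).

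Of the sodium-coupled glutamine importers, SLC38A1 rose in both DLD1 derivatives and SLC38A2 in DLD1 WT cells. SLC38A1 had log2 levels of 11.26 and 11.14 in DLD1 Mut cells without glutamine, against 10.75 and 10.77 with it (log2 change 0.44 ± 0.09, 1.35-fold, adjusted p = 0.00353). In DLD1 WT cells SLC38A1 was 11.25 and 11.21 without glutamine, against 10.57 and 10.74 with it (0.58 ± 0.09, 1.49-fold, adjusted p = 0.000917). The DLD1 groups did not overlap, while in HCT116 Mut cells 11.06 and 11.01 overlapped 10.95 and 11.03 (0.05 ± 0.09, adjusted p = 0.740). In HCT116 WT cells SLC38A1 levels of 11.21 and 11.09 stood against 10.92 and 10.91 (0.24 ± 0.09, adjusted p = 0.0970). SLC38A2, which is known for its induction when amino acids are scarce, rose in DLD1 WT cells, with 10.81 and 10.87 without glutamine, against 10.37 and 10.57 with it (0.37 ± 0.11, 1.29-fold, adjusted p = 0.0287). Its log2 levels in DLD1 Mut cells were 10.73 and 10.93 against 10.53 and 10.55 (0.29 ± 0.11, adjusted p = 0.0610). That change was called under 5 of 25 alternatives. The SLC38A2 responses of the DLD1 derivatives were not shown to differ (Mut minus WT -0.07, limma adjusted p = 0.877). The HCT116 Mut arrays overlapped, with 11.56 and 11.51 against 11.51 and 11.50 (0.03 ± 0.11, adjusted p = 0.881). HCT116 WT cells had 11.97 and 11.75 against 11.66 and 11.56 (0.25 ± 0.11, adjusted p = 0.149). The SLC38A2 call in DLD1 WT cells was lost without replicate 1 of the +Gln arrays (0.27, adjusted p = 0.184) or replicate 1 (0.40, adjusted p = 0.0813) or 2 (0.34, adjusted p = 0.133) of the -Gln arrays.

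SLC7A1, the arginine and lysine carrier, rose in 3 derivatives. DLD1 Mut cells had log2 levels of 9.66 and 9.72 without glutamine, against 8.93 and 8.85 with it (log2 change 0.80 ± 0.14, 1.74-fold, adjusted p = 0.00120). DLD1 WT cells had 9.68 and 9.74 without glutamine, against 8.44 and 8.86 with it (1.06 ± 0.14, 2.09-fold, adjusted p = 0.000288). HCT116 Mut cells had 9.65 and 9.66 without glutamine, against 9.11 and 9.31 with it (0.45 ± 0.14, 1.36-fold, adjusted p = 0.0298). The groups did not overlap in these derivatives, and in HCT116 WT cells 9.52 and 9.26 stood above 9.14 and 9.13 by 0.26 ± 0.14, which did not pass (adjusted p = 0.239). The HCT116 Mut call was lost without replicate 1 of the +Gln arrays (0.34, adjusted p = 0.172) or replicate 1 (0.45, adjusted p = 0.0942) or 2 (0.44, adjusted p = 0.105) of the -Gln arrays.

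SLC6A9, the glycine importer, rose in both DLD1 derivatives and in HCT116 WT cells. DLD1 WT cells had log2 levels of 7.30 and 7.15 without glutamine, against 5.58 and 5.88 with it (log2 change 1.50 ± 0.16, 2.82-fold, adjusted p = 8.43e-05). DLD1 Mut cells had 6.91 and 6.76 without glutamine, against 6.10 and 6.24 with it (0.66 ± 0.16, 1.58-fold, adjusted p = 0.00868). HCT116 WT cells had 6.65 and 6.56 without glutamine, against 5.93 and 5.43 with it (0.93 ± 0.16, 1.90-fold, adjusted p = 0.00249). In each of these the -Gln arrays lay above the +Gln arrays. They did so in HCT116 Mut cells too, 6.24 and 6.32 against 5.86 and 6.03, where the change of 0.34 ± 0.16 did not pass (adjusted p = 0.142). The rise in DLD1 Mut cells was not called without replicate 1 of the +Gln (0.59, adjusted p = 0.0606) or of the -Gln arrays (0.59, adjusted p = 0.0611).

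The log2 change on glutamine withdrawal was higher in DLD1 than in HCT116 cells for 7 of the 10 genes and lower for 0, where 10.0% of all tested genes had a higher and 8.93% a lower response in DLD1. The largest difference was that of SLC7A11, with a log2 change higher by 1.02 ± 0.11 in DLD1 than in HCT116 (mean of both genotypes in each line, adjusted p = 0.000203). SLC7A1 (0.58 ± 0.14, adjusted p = 0.0159), SLC3A2 (0.38 ± 0.08, adjusted p = 0.0101), SLC1A5 (0.37 ± 0.09, adjusted p = 0.0168) and SLC38A1 (0.37 ± 0.09, adjusted p = 0.0183) followed. SLC1A4 (0.36 ± 0.11, adjusted p = 0.0428) and SLC7A5 (0.31 ± 0.09, adjusted p = 0.0291) passed narrowly. The SLC1A4 difference was not called without any 1 of 15 of the 16 arrays (0.28 to 0.39, adjusted p = 0.0534 to 0.0908), the exception being replicate 1 of HCT116 WT cells without glutamine. The SLC7A5 difference was lost without any 1 of 11 arrays (0.27 to 0.31, adjusted p = 0.0515 to 0.0654). It was kept without replicate 2 of DLD1 Mut +Gln, replicate 1 of DLD1 Mut -Gln, or replicate 1 of HCT116 Mut +Gln, HCT116 Mut -Gln or HCT116 WT -Gln. SLC38A2 (0.20 ± 0.11, adjusted p = 0.254), SLC6A9 (0.45 ± 0.16, adjusted p = 0.0802) and SLC43A1 (-0.09 ± 0.17, adjusted p = 0.768) did not pass, though SLC6A9 did without replicate 2 of HCT116 WT +Gln (0.57, adjusted p = 0.0189).

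The response also differed between the PIK3CA genotypes, and where that difference was called the signed log2 change was lower in Mut cells. In DLD1 cells 2 of the 10 genes had a lower log2 change in Mut than in WT cells and 0 a higher one, where 0.568% of all tested genes were lower and 0.255% higher. These were SLC1A4 (Mut minus WT -1.03 ± 0.15, adjusted p = 0.0226) and SLC7A11 (-0.81 ± 0.15, adjusted p = 0.0412). In HCT116 cells the 2 genes were SLC1A4 (-1.02 ± 0.15, adjusted p = 0.00342) and SLC1A5 (-0.52 ± 0.13, adjusted p = 0.0309), with 0 higher, where 4.75% of all genes were called in each direction. Both genes fell in HCT116 Mut cells (SLC1A4 -0.35, SLC1A5 -0.41), while in HCT116 WT cells SLC1A4 rose by 0.66 and SLC1A5 was not called (0.11). The SLC1A4 difference was thus -1.03 in one line and -1.02 in the other, in comparisons that share no array but take 1 spread from the same fit. With DLD1 fitted without the HCT116 arrays the SLC1A4 difference did not pass (adjusted p = 0.0944). In HCT116 it was called with each array left out in turn, and missed the threshold when HCT116 was fitted without the DLD1 arrays (adjusted p = 0.0520). In DLD1 its call was lost without any 1 of the 8 DLD1 arrays (-1.07 to -0.99, adjusted p = 0.0641 to 0.0973). The SLC7A11 call was lost without any 1 array other than the HCT116 WT -Gln arrays (-0.91 to -0.71, adjusted p = 0.0595 to 0.136). The SLC1A5 call in HCT116 was lost without replicate 2 of Mut +Gln (-0.45), replicate 1 of WT +Gln (-0.46), replicate 1 (-0.56) or 2 (-0.47) of Mut -Gln or replicate 1 of WT -Gln (-0.46), with adjusted p of 0.0524 to 0.101. A difference of SLC6A9 was gained without replicate 1 of HCT116 WT +Gln (-0.84, adjusted p = 0.0417).

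With glutamine present, the Mut derivatives already had more of some of these transcripts than the WT derivatives. In DLD1 cells 3 of the 10 genes were higher in Mut than in WT cells and 0 lower, where 2.60% of all tested genes were higher and 3.20% lower. SLC43A1 was 2.78-fold higher (log2 difference 1.47 ± 0.17, adjusted p = 0.000570), SLC1A4 2.06-fold (1.05 ± 0.11, adjusted p = 0.000319) and SLC7A11 1.64-fold (0.71 ± 0.11, adjusted p = 0.00268). The +Gln arrays of the genotypes did not overlap for any of these. In HCT116 cells 2 were higher and 0 lower, where 1.12% of all genes were higher and 2.12% lower. These were SLC1A4 (0.52 ± 0.11, 1.43-fold, adjusted p = 0.0305) and SLC7A11 (0.52 ± 0.11, 1.44-fold, adjusted p = 0.0249). Each of these HCT116 calls was lost without any 1 of the 4 HCT116 +Gln arrays, with differences of 0.46 to 0.58 (adjusted p = 0.0712 to 0.173) for SLC1A4 and 0.48 to 0.56 (adjusted p = 0.0672 to 0.140) for SLC7A11. SLC43A1 differed by little in HCT116 (0.01 ± 0.17, 95% interval -0.37 to 0.38, adjusted p = 0.991). The estimates of SLC3A2 (0.32, adjusted p = 0.0755) and SLC7A5 (0.34, adjusted p = 0.0641) were higher in HCT116 Mut cells too but did not pass. Each was called under 2 of 25 alternatives. These differences use the same +Gln arrays as the responses above, so that a high +Gln level in Mut cells and a low Mut response are in part the same measurement.

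**Figure D3:**
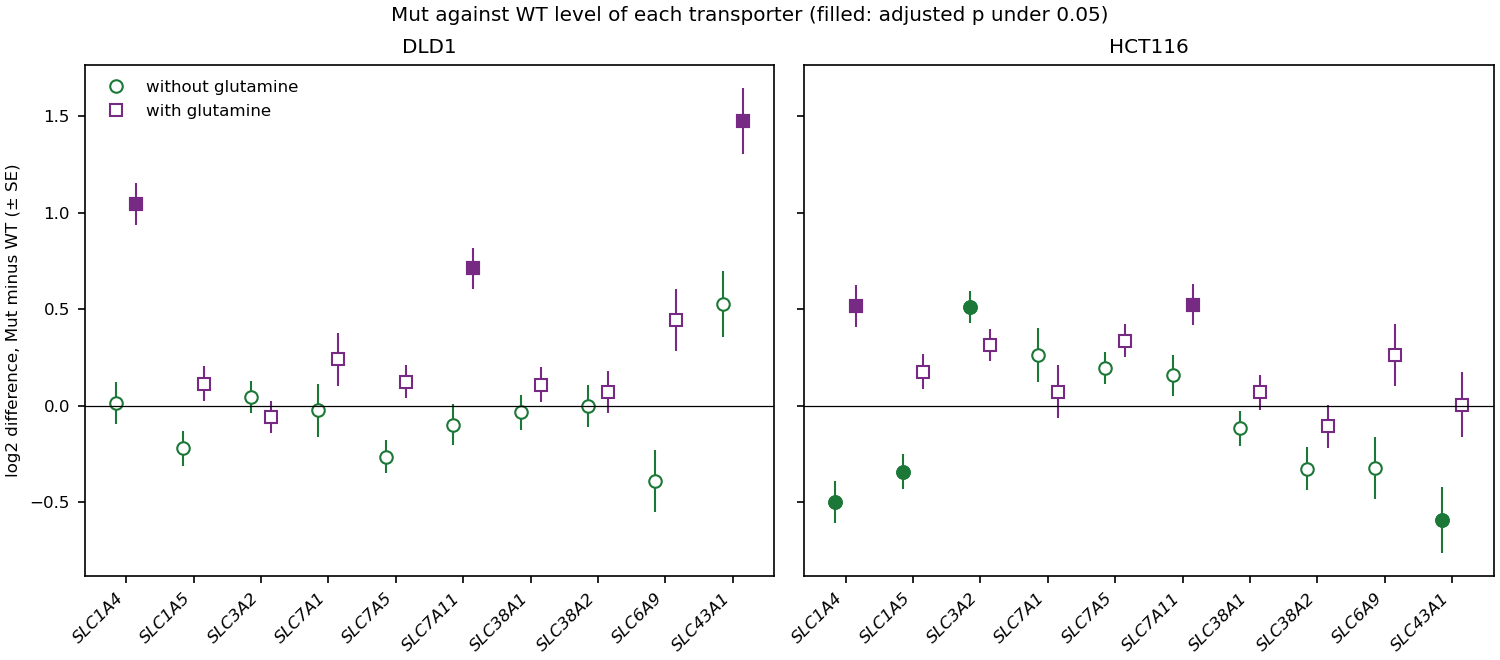
Log2 difference between PIK3CA Mut and WT cells (Mut minus WT) of each transporter, without and with glutamine, in DLD1 and HCT116; bars are limma's SE on either side and filled points passed the limma threshold. SLC1A4 lay at 1.05 with glutamine and at 0.02 without it in DLD1, and at 0.52 with glutamine and -0.50 without it in HCT116.

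Without glutamine none of the differences between the DLD1 derivatives passed the test. In that comparison 0 of the 10 genes were called by limma (1 higher and 3 lower in Mut at an unadjusted p under 0.05), where 4.36% of all tested genes were higher and 5.91% lower in Mut, and limma's log2 differences ran from -0.39 (SLC6A9) to 0.53 (SLC43A1). For SLC1A4 the difference was 0.02 with a 95% interval of -0.23 to 0.26, and for SLC7A11 -0.10 with an interval of -0.33 to 0.14. SLC43A1 would have been called higher in Mut without replicate 1 of DLD1 WT -Gln (0.79, adjusted p = 0.0278). In HCT116 cells without glutamine 3 of the 10 genes were lower and 1 higher in Mut than in WT cells, where 12.4% of all genes were lower and 12.3% higher. SLC43A1 (-0.59 ± 0.17, adjusted p = 0.0271), SLC1A4 (-0.50 ± 0.11, adjusted p = 0.00720) and SLC1A5 (-0.34 ± 0.09, adjusted p = 0.0188) were lower, and SLC3A2 was higher (0.51 ± 0.08, 1.43-fold, adjusted p = 0.00139). The SLC3A2 response to withdrawal was not shown to differ between the HCT116 genotypes (Mut minus WT 0.20, limma adjusted p = 0.349). Without replicate 1 of HCT116 WT -Gln the calls of SLC1A4 (-0.33, adjusted p = 0.0574), SLC1A5 (-0.29, adjusted p = 0.115) and SLC43A1 (-0.60, adjusted p = 0.0922) were lost. Without replicate 2 of HCT116 Mut -Gln those of SLC1A5 (-0.30, adjusted p = 0.111) and SLC43A1 (-0.47, adjusted p = 0.168) were lost, and without replicate 2 of HCT116 WT -Gln that of SLC43A1 (-0.58). SLC38A2 (-0.32 ± 0.11, adjusted p = 0.0532) was called lower without replicate 2 of HCT116 WT -Gln (-0.44, adjusted p = 0.0407) or without replicate 1 or 2 of DLD1 WT +Gln (-0.32, adjusted p = 0.0496 each).

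The lines themselves differed in the levels of these transporters with glutamine present. Compared with HCT116 cells, DLD1 cells had more SLC1A4 (log2 difference 2.11 ± 0.08, 4.33-fold, adjusted p = 3.73e-09), SLC43A1 (1.28 ± 0.12, 2.43-fold, adjusted p = 6.02e-06) and SLC1A5 (0.27 ± 0.06, 1.20-fold, adjusted p = 0.00528). They had less SLC7A11 (-1.27 ± 0.07, 2.41-fold lower, adjusted p = 1.56e-07), SLC38A2 (-1.06 ± 0.08, 2.08-fold lower, adjusted p = 8.69e-07), SLC7A1 (-0.40 ± 0.10, adjusted p = 0.00607), SLC7A5 (-0.29 ± 0.06, adjusted p = 0.00218) and SLC38A1 (-0.25 ± 0.06, adjusted p = 0.00865). SLC3A2 (-0.05 ± 0.06, adjusted p = 0.498) and SLC6A9 (0.14 ± 0.11, adjusted p = 0.366) did not pass. The 3 higher and 5 lower genes of 10 stood beside 24.5% higher and 22.5% lower among all tested genes, and all 8 were called with each array left out in turn. As each line is 1 cell line, these are differences between these lines and not between kinds of tumour. They use the same +Gln arrays as the differences in response between the lines. A low +Gln level in DLD1 cells and a higher DLD1 response are thus in part the same measurement.

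Ordered by level over the 8 groups, the genes fell into different patterns. For SLC1A4, SLC1A5 and SLC43A1 the 4 DLD1 groups were the 4 highest. In falling order of mean log2 level, SLC1A4 was highest in DLD1 Mut +Gln (9.36), DLD1 Mut -Gln (9.36) and DLD1 WT -Gln (9.35), whose arrays overlapped. Then came DLD1 WT +Gln (8.32), HCT116 WT -Gln (7.13) and HCT116 Mut +Gln (6.98), the last 2 overlapping, and HCT116 Mut -Gln (6.63) and HCT116 WT +Gln (6.47). SLC38A2 had the opposite order of lines, with the 4 HCT116 groups at 11.51 to 11.86 and the 4 DLD1 groups at 10.47 to 10.84. For SLC7A11, SLC7A1, SLC38A1 and SLC6A9 the 4 -Gln groups were the 4 highest, whatever the line. SLC7A11 was highest in HCT116 Mut -Gln (10.23), followed by HCT116 WT -Gln (10.08) and DLD1 WT -Gln (9.96), which overlapped, and DLD1 Mut -Gln (9.86), which overlapped HCT116 Mut +Gln (9.83), and by HCT116 WT +Gln (9.30), DLD1 Mut +Gln (8.65) and DLD1 WT +Gln (7.94). Its 4 -Gln means thus spanned 9.86 to 10.23 and its 4 +Gln means 7.94 to 9.83.

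Over the 8 group means the genes most like SLC1A4 were RNF113A (Pearson r = 0.997), WASHC3 (0.992) and KAAG1 (0.983), and those most like SLC43A1 were ZNF878 (0.990), PROX1 (0.970) and HAS2-AS1 (0.967). SLC7A11 was closest to CEP120 (0.976), C15orf40 (0.966) and NIBAN1 (0.965), and SLC6A9 to POLL (0.973), XBP1 (0.968) and ZBED3 (0.967). SLC38A2 was closest to MBTD1 (0.995), SCARNA1 (0.994) and TAF12 (0.993), and SLC3A2 to NHLRC2 (0.985), WHR1 (0.980) and MIER3 (0.977). SLC7A1 went with ARMC1 (0.983), TXNL4B (0.979) and ATXN2L (0.977). SLC38A1 went with KCTD5 (0.978), RAB3GAP1 (0.974) and KIF3B (0.971), and SLC1A5 with HCCAT5 (0.976), PAAF1 (0.973) and RCBTB1 (0.971). SLC7A5 had the least close neighbours, ZNF76 (0.929), LRTOMT (0.918) and PRSS48 (0.917). Some neighbours were dim and near the array medians. Log2 group means were 1.95 to 2.52 for LRTOMT, 1.74 to 2.09 for PRSS48 and 1.28 to 2.39 for HAS2-AS1. Among the 10 genes themselves SLC7A1 and SLC38A1 were most alike (r = 0.940), and SLC1A4 and SLC38A2 least (r = -0.848). These are descriptions over 8 means that come from the same arrays and hold the step between the lines, and they are not tests.

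Among the other amino acid transporters more genes fell than rose. These are the carriers left after the 10 genes above were named with earlier results of these data known. An excess of falls among them cannot be told apart from that choice. Of 50 further listed carriers 49 had a probe set and 37 were tested, and on average over the derivatives 4 rose, 13 fell and 20 were not called, where 24.3% of all tested genes rose and 23.5% fell. Their median log2 change was -0.14, beside -0.00 for all tested genes. In DLD1 Mut cells 3 rose and 10 fell (16.8% of all genes in each direction), and in DLD1 WT cells 2 rose and 12 fell (14.0% and 13.0%). In HCT116 Mut cells 2 rose and 12 fell (16.4% and 16.5%), and in HCT116 WT cells 2 rose and 8 fell (10.3% and 10.1%). The falls with the smallest adjusted p were led by SLC6A6, the taurine importer (-1.12 ± 0.05, adjusted p = 7.16e-08). Next were SLC7A2, a second carrier of cationic amino acids (-1.81 ± 0.13, adjusted p = 1.05e-06), SLC7A8, the LAT2 light chain that also pairs with SLC3A2 (-1.03 ± 0.08, adjusted p = 1.82e-06), and SLC1A3, a glutamate and aspartate importer (-0.78 ± 0.08, adjusted p = 9.60e-06). SLC7A2 fell where SLC7A1, which carries the same kind of substrate, rose: in DLD1 WT cells the log2 changes were -1.88 for SLC7A2 and 1.06 for SLC7A1, and in HCT116 Mut cells -2.10 and 0.45. SLC7A8 fell by 1.90 in DLD1 WT and by 1.37 in DLD1 Mut cells, where SLC3A2 rose. The rise with the smallest adjusted p was that of SLC25A38, a mitochondrial glycine carrier (0.57 ± 0.05, adjusted p = 7.37e-06). These average changes of SLC6A6, SLC7A2, SLC7A8, SLC1A3 and SLC25A38 were called under each alternative. The rises of the lysosomal carrier SLC66A1 (0.28 ± 0.09, adjusted p = 0.0296) and of SLC38A7 (0.22 ± 0.08, adjusted p = 0.0371) and SLC6A17 (0.37 ± 0.14, adjusted p = 0.0488) were lost under 9, 12 and 17 of 24 alternatives, with adjusted p up to 0.251, 0.0865 and 0.103.

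**Figure D4:**
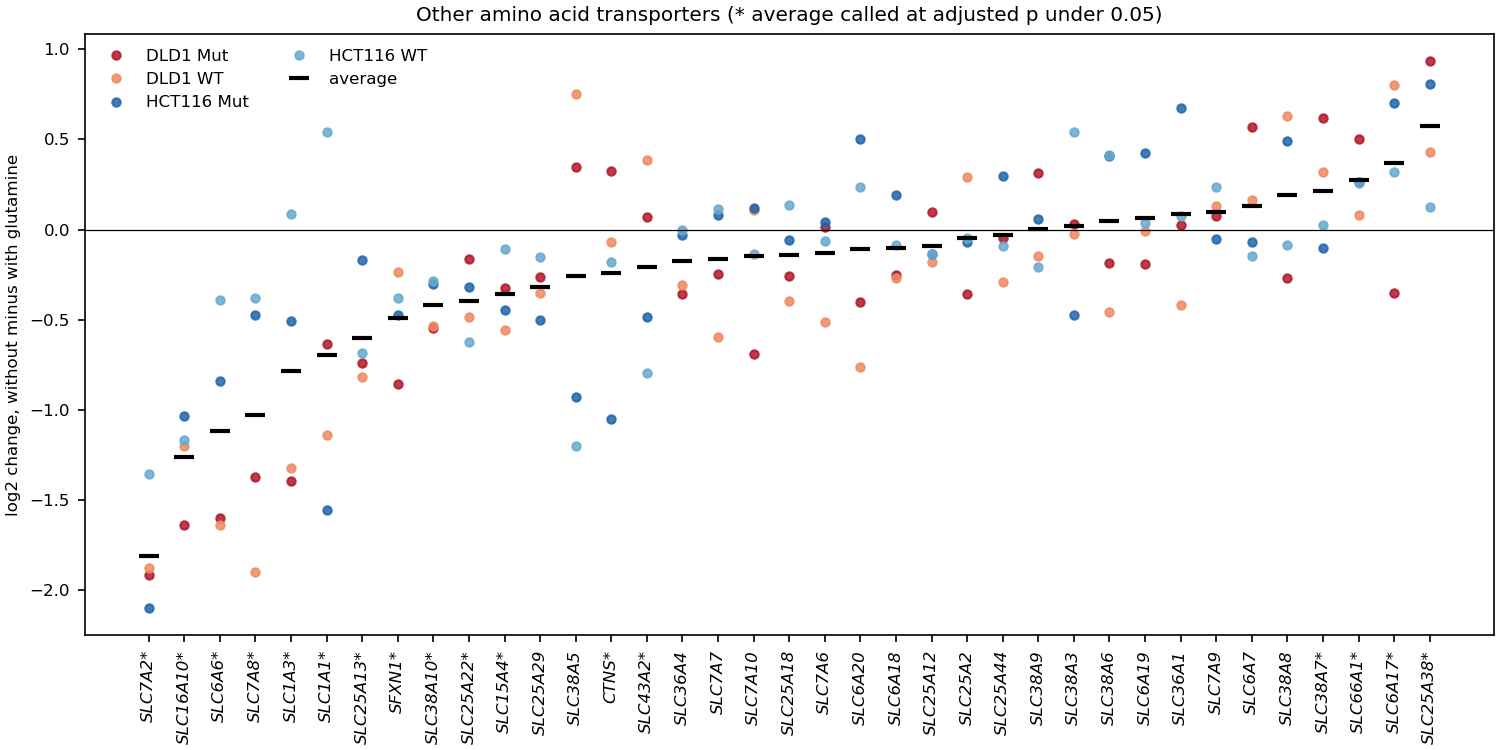
Log2 change after glutamine withdrawal (-Gln minus +Gln) in the 4 derivatives (coloured points) and on average (black dash) for the 37 other amino acid transporters tested, ordered by the average; an asterisk marks an average that passed the limma threshold. SLC7A2 fell in every derivative, and SLC1A1 lay at -1.55 in HCT116 Mut and 0.54 in HCT116 WT cells.

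A few of these carriers were called in opposite directions in different derivatives. SLC1A1, a glutamate importer, fell by 1.55 in HCT116 Mut, by 1.14 in DLD1 WT and by 0.64 in DLD1 Mut cells and rose by 0.54 in HCT116 WT cells. Its response differed between the HCT116 genotypes (Mut minus WT -2.09 ± 0.22, adjusted p = 0.00063). Its rise in HCT116 WT cells was lost without any 1 of the 4 HCT116 WT arrays (0.49 to 0.58, adjusted p = 0.0855 to 0.139), and its fall in DLD1 Mut cells without replicate 2 of the +Gln (-0.53, adjusted p = 0.0717) or -Gln arrays (-0.51, adjusted p = 0.0754). SLC38A5, a glutamine carrier, rose by 0.75 in DLD1 WT and fell by 0.93 in HCT116 Mut and by 1.20 in HCT116 WT cells. The difference between the lines was 1.62 ± 0.25 (DLD1 minus HCT116, adjusted p = 0.00155). The rise of SLC38A5 in DLD1 WT cells was lost under 18 of 25 alternatives (adjusted p up to 0.241). Its falls were lost without replicate 2 of the HCT116 Mut +Gln (-0.82, adjusted p = 0.0864) or -Gln arrays (-0.83, adjusted p = 0.0842) and without replicate 2 of the HCT116 WT -Gln arrays (-1.02, adjusted p = 0.0542). SLC38A3, another glutamine carrier, fell by 0.47 in HCT116 Mut and rose by 0.54 in HCT116 WT cells, calls that were lost under 16 and 9 of 25 alternatives (adjusted p up to 0.296 and 0.153). Without replicate 1 of the HCT116 Mut +Gln arrays the fall of SLC38A3 was -0.27. SLC38A3 and SLC38A5 were dim, with mean log2 intensities of 3.08 and 4.21, so the sizes of their changes are uncertain.

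The transcripts of the factors known to act on these genes were measured on the same arrays. ATF4 rose by 0.78 ± 0.05 on average (adjusted p = 4.61e-07), and by 0.93 in DLD1 Mut, 0.99 in DLD1 WT, 0.52 in HCT116 Mut and 0.69 in HCT116 WT cells. Its targets and partners DDIT3 (2.94 ± 0.17, adjusted p = 1.96e-07), ATF3 (1.82 ± 0.13, adjusted p = 9.78e-07), CEBPB (1.07 ± 0.06, adjusted p = 2.28e-07) and CEBPG (0.95 ± 0.06, adjusted p = 4.14e-07) rose too. The DDIT3 probe set was dim with glutamine, at intensities of 7.88 and 3.39 in DLD1 WT and 8.07 to 10.1 in DLD1 Mut and HCT116 WT cells, against array medians of 3.57 to 3.70, so the size of its change is uncertain. The ATF3 probe set was dim with glutamine too, at intensities of 10.0 to 22.7 over the derivatives, so the sizes of its changes are also uncertain. The responses of DDIT3 (0.38 ± 0.33, adjusted p = 0.485), CEBPB (0.31 ± 0.12, adjusted p = 0.111) and CEBPG (-0.08 ± 0.12, adjusted p = 0.712) were not shown to differ between DLD1 and HCT116. Those of ATF4 (0.36 ± 0.10, adjusted p = 0.0307) and ATF3 (0.87 ± 0.26, adjusted p = 0.0412) passed and were lost under 11 and 14 of 24 alternatives (adjusted p up to 0.0712 and 0.0894). That of NFE2L2, which encodes NRF2, an inducer of SLC7A11 and other antioxidant genes, did differ (0.76 ± 0.11, adjusted p = 0.00138). NFE2L2 rose by 0.78 in DLD1 Mut and by 0.93 in DLD1 WT cells, whereas the changes in HCT116 Mut (-0.01, adjusted p = 0.954) and HCT116 WT cells (0.20, adjusted p = 0.269) did not pass. MYC, which is known to act on SLC1A5 and SLC7A5, fell in DLD1 Mut (-0.32 ± 0.09, adjusted p = 0.0157) and DLD1 WT cells (-0.49 ± 0.09, adjusted p = 0.00195), was higher in HCT116 Mut cells (0.61 ± 0.09, adjusted p = 0.000395), and gave -0.15 ± 0.09 in HCT116 WT cells (adjusted p = 0.295). Its fall in DLD1 Mut cells was lost without replicate 2 of the +Gln (-0.27, adjusted p = 0.102) or -Gln arrays (-0.29, adjusted p = 0.0904). The part of these factors in the changes of the transporters was not tested.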

How the data were processed

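Per the labels' protocols, RNA was labelled with biotin by the Affymetrix whole-transcript protocol. The deposited table gives a linear intensity per array for 53617 probe sets and 16 arrays, and the sources used here do not give how the authors normalized these intensities. Values were put on the log2 scale with no pseudocount and no further normalization.

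Of the probe sets 23871 had exactly 1 gene symbol, 1842 had several and 27904 had none in the platform table used. Only those with 1 symbol were used, the brightest per gene, and the upper 70% by mean log2 level were tested. One limma 3.58.1 fit (R 4.3.3) of 8 group means over 16 arrays gave 13 contrasts with 8 residual and 2.49 prior degrees of freedom, and adjusted p-values are Benjamini-Hochberg values over all tested genes. Errors are limma's SE, intervals are unadjusted 95% intervals, and folds are the antilog of the log2 change, taken without its sign. Since nothing further describes the replicates, p-values measure only the spread between the arrays of a group. The script was tested on simulated data with known changes, for glutamine withdrawal in DLD1 Mut cells and on average only. The contrasts between genotypes, between lines and of responses were not tested in that way.

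All 10 transporters were named in each contrast, with the 3 genes most correlated with each. Other transporters named are the 4 with the smallest adjusted p in each direction among those called on average, and those called in opposite directions in different derivatives. The members and lists were chosen with earlier results of these data known. Alternatives were no filter or a stricter filter on dim genes, quantile normalization, equal array medians, averaging the probe sets of a gene, a replicate block, eBayes with trend and robust, a fit per cell line, and a fit without each array. Promoter windows came from RefSeq (GRCh38.p14).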

Additional observations from a re-analysis of the deposited data

Results flagged for a closer look

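Responses to glutamine withdrawal that differed between the lines by a test of the difference itself (limma, DLD1 minus HCT116 on the log2 scale) were those of SLC7A11 (1.02, adjusted p = 0.000203), SLC7A1 (0.58, adjusted p = 0.0159), SLC3A2 (0.38, adjusted p = 0.0101), SLC1A5 (0.37, adjusted p = 0.0168), SLC38A1 (0.37, adjusted p = 0.0183), SLC1A4 (0.36, adjusted p = 0.0428) and SLC7A5 (0.31, adjusted p = 0.0291). Responses that differed between the genotypes (Mut minus WT) were those of SLC1A4 in DLD1 (-1.03, adjusted p = 0.0226) and in HCT116 (-1.02, adjusted p = 0.00342), SLC7A11 in DLD1 (-0.81, adjusted p = 0.0412) and SLC1A5 in HCT116 (-0.52, adjusted p = 0.0309). A group of 2 arrays is too small for a check of outlying arrays.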

How the results depend on the processing

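Of the 59 calls of the 10 genes over 13 contrasts, 41 were kept under each alternative run and 42 with each array left out in turn, and no value changed sign past the threshold. The 8 average rises and the 8 differences between DLD1 and HCT116 with glutamine were kept under each alternative. Of 130 values, 5 calls were lost with no filter on dim genes, 1 with equal array medians and 11 of 100 with each line fitted separately, which leaves fewer arrays. Gained were 6 with the stricter filter, 2 with quantile normalization, 1 with equal medians and 17 with eBayes with trend and robust. Averaging the probe sets of a gene changed none. The contrasts across lines could not be fitted per line.

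For the difference of responses Mut minus WT in DLD1, 129 genes and 2 of the 10 were called, against 46 and 1 with no filter, 328 genes with the stricter filter, 1 of the 10 with equal medians, 602 and 5 with trend and robust, 3 and 0 with the line fitted alone, and 15 to 97 and 0 to 2 with an array left out. In HCT116 it was 1488 and 2, against 1 of the 10 with no filter, 430 and 0 with the line alone, and 842 to 1396 and 1 to 2 with an array left out. For Mut minus WT with glutamine in HCT116, 507 and 2 were called, against 1 of the 10 with no filter, 4 with the stricter filter, 963 and 4 with trend and robust, 89 and 0 with the line alone, and 199 to 488 and 0 to 2 with an array left out. In DLD1 it was 910 genes, against 1379 with trend and robust, 599 with the line alone and 459 to 887 with an array left out. Without glutamine in DLD1 it was 1610 genes and 0 of the 10, against 2 with the stricter filter, 3 with trend and robust, and 709 to 1563 and 0 to 1 with an array left out. In HCT116 it was 4 of the 10, against 2 with the line alone and 1 to 5 with an array left out. Glutamine withdrawal in HCT116 WT called 3189 genes and 3 of the 10, against 6 with trend and robust, 2070 genes with the line alone and 2054 to 3140 with an array left out, and in HCT116 Mut 5 of the 10, against 2 to 5 with an array left out. Among all genes, trend and robust called 3713 for glutamine withdrawal in HCT116 WT and 2251 for Mut minus WT without glutamine in DLD1. For Mut minus WT without glutamine in HCT116 it was 3858 genes, against 2793 with the line alone. The filter settings rest on more or fewer tested genes than the 15676 of the main fit. Whether counts of the 10 moved beyond such general shifts was not tested. An array left out leaves 1 array in its group, which is then assumed to vary like the others. Beyond such fewer arrays and fewer or more genes tested, the cause was not tested.

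No strong effect shared by same-numbered arrays was seen, since the differences between replicates 1 and 2 correlated at -0.04 to 0.03 over the 28 pairs of groups. Such values over all tested genes cannot show that the cultures were not handled in pairs. With the replicate block over all arrays 2 calls were lost, and the DLD1 difference of responses was called for 76 genes and 1 of the 10. With the replicate block within each line 9 calls were lost and 2 gained, the same difference was called for 22 genes and 0 of the 10, that in HCT116 for 1 of the 10, and Mut minus WT with glutamine in HCT116 for 0 of the 10. Precision was limited by 2 arrays a group.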

Other observations

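Among the 37 other amino acid transporters tested, some were also called between the PIK3CA genotypes and between the lines (limma, adjusted over all tested genes). In HCT116 cells without glutamine 4 were higher and 9 lower in Mut than in WT cells, where 12.3% of all tested genes were higher and 12.4% lower. With glutamine 3 were lower, where 2.12% of all genes were lower. In DLD1 cells without glutamine 2 were higher and 3 lower in Mut than in WT cells, against 4.36% and 5.91% of all genes, and with glutamine 2 were higher and 4 lower, against 2.60% and 3.20%. With glutamine 19 were higher and 6 lower in DLD1 than in HCT116 cells, against 24.5% and 22.5% of all genes. Several of these carriers were dim, such as SLC7A9 and SLC6A7 with mean log2 intensities of 1.74 and 1.78, near the array medians.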
